A study of Mus musculus with 12 samples.

Results

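The blood-retina barrier genes described here are 9 genes chosen by name for their part in the sealing, transport and permeability of retinal vessels: Cldn5, Ocln and Tjp1 of tight junctions, Cdh5, Pecam1 and Esam of the contacts between endothelial cells, the transporter genes Mfsd2a and Abcb1a, and Plvap, a marker of leaky endothelium. All 9 were among the 24570 named genes measured. The samples were whole retinas of male C57Bl6/J mice, with 1 array for each animal. The diabetic group held 6 animals given a single intraperitoneal dose of streptozotocin at 160 mg/kg, a toxin of pancreatic beta cells, when 8 weeks old, with a blood glucose above 15 mM required 7 days afterwards. The control group held 6 normoglycemic animals without streptozotocin. Retinas were collected at 6 weeks, which the descriptions of the diabetic samples count from the induction of diabetes and the series text gives as the age of the animals, so the age at collection is not settled. The label numbers of the control animals all lie above those of the diabetic animals, and if they mark cohorts, cohort and diabetes cannot be told apart. Streptozotocin is a model of insulin deficiency.

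Retinal capillaries form the inner blood-retina barrier. Their endothelial cells are joined by tight junctions, of which claudin-5 is the main sealing protein, occludin a further membrane protein and ZO-1 (Tjp1) the scaffold beneath the membrane, while VE-cadherin (Cdh5) holds the adherens junctions. Barrier endothelium also keeps vesicular transport low, which needs the lipid transporter Mfsd2a, pumps drugs and toxins back into the blood with P-glycoprotein (Abcb1a in mice), and lacks the fenestral protein Plvap, which is found in leaky vessels such as those of the choroid. Norrin, a ligand made by Mueller glia, maintains this state through the receptor Fzd4 and beta-catenin. Leakage of this barrier is a known feature of diabetic retinopathy.

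The 250 bases before the annotated gene start are shown for Cldn5 and Mfsd2a, the lower-valued members with the smallest p in the comparison. Those of Abcb1a, the other transporter gene among the members, are shown too. They come from the RefSeq table of build GRCm38.p6, which held 5 of the 9 members (not Cdh5, Pecam1, Esam and Plvap), and are chr16:18776597-18776846 on the plus strand, chr4:122961189-122961438 on the minus strand and chr5:8566841-8567090 on the plus strand, each written 5′ to 3′ along the gene. Capitals mark CTTTGA or its reverse complement TCAAAG, the core read by the TCF/LEF partners of beta-catenin.
Cldn5: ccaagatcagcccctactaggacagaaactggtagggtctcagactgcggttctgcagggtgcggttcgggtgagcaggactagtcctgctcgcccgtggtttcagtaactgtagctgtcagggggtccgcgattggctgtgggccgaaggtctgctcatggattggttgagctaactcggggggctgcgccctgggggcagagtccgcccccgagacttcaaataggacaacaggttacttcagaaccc
Mfsd2a: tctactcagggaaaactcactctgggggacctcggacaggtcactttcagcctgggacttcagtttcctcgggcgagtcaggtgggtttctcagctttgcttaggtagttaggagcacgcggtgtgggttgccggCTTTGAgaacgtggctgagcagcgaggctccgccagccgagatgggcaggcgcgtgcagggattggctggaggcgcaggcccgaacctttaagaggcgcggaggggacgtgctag
Abcb1a: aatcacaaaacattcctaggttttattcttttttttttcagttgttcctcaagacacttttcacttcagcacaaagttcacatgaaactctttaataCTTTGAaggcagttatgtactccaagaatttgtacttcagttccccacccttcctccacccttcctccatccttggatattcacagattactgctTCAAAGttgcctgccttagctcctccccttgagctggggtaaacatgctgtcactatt
The Mfsd2a window held this core once, starting 115 bases before the gene start, and the Abcb1a window held it 2 times, at 153 and 58 bases. The windows of Cldn5, Tjp1 and Ocln did not hold these letters. Of all 32851 windows of this length, 13.8% held the core. Its presence is a description of the sequence, and binding was not tested. The ETS core CCGGAA (both strands), found in 12.0% of all windows, occurred once among the members, at 227 bases before a start of Ocln, and the SOX core ACAAT (both strands), found in 27.7%, occurred in 0 of the 5 genes. No motif overlapped another.

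Values are log2 RMA values, on which a difference of 1 is a doubling. All 12 arrays shared a single distribution of values, correlations between arrays ran from 0.993 to 0.998, and the first principal component, with 26.8% of the variance, parted controls (-14.7 to -1.94) from diabetic retinas (3.10 to 11.8). Photoreceptor, bipolar, ganglion cell and Mueller glia markers had a mean of 10.6 to 10.7 on every array. The 20 general endothelial genes were dim, with 13 of them below the median of all gene means (5.74). Their mean lay between 5.96 and 6.00 in controls and between 5.96 and 5.99 in diabetic retinas. It joins 10 genes with changes above 0, led by Kdr (0.26) and Flt1 (0.12), and 10 below 0, led by Nos3 (-0.12) and Eng (-0.10). A level mean therefore does not show that endothelial signal was steady. Lens markers varied most between arrays, from 5.87 to 6.56 in controls and from 5.75 to 7.54 in diabetic retinas, with diabetic 6 highest and diabetic 2 next (6.97). Of the barrier genes, Cldn5, Ocln, Mfsd2a and Plvap lay below the median of all gene means, where background signal compresses changes, and a missing call there does not show that a gene was unchanged.

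In the diabetic retinas, 0 of the 9 barrier genes passed the limma test (adjusted p under 0.05 over all genes), against 3.24% of all genes. The members with the smallest p were Cldn5 and Mfsd2a, lower in diabetic retinas, and Tjp1, higher. At an unadjusted p under 0.05 there were 3 members, against 21.0% of all genes: 2 were lower (11.3% of all genes) and 1 was higher (9.76%). At an adjusted p under 0.10 there was 1 member, Cldn5, against 8.01% of all genes. In all, 6 members had values below 0, against 51.9% of all genes, and the median change was -0.02, against -0.002 for all genes. For every member the groups overlapped (0 of 9 apart, against 2.84% of all genes). To reach the p of the least significant called gene, a member would have needed a change of 0.11 (1.08-fold, Cldn5) to 0.21 (1.16-fold, Cdh5 and Abcb1a), given its own standard error.

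**Figure D1:**
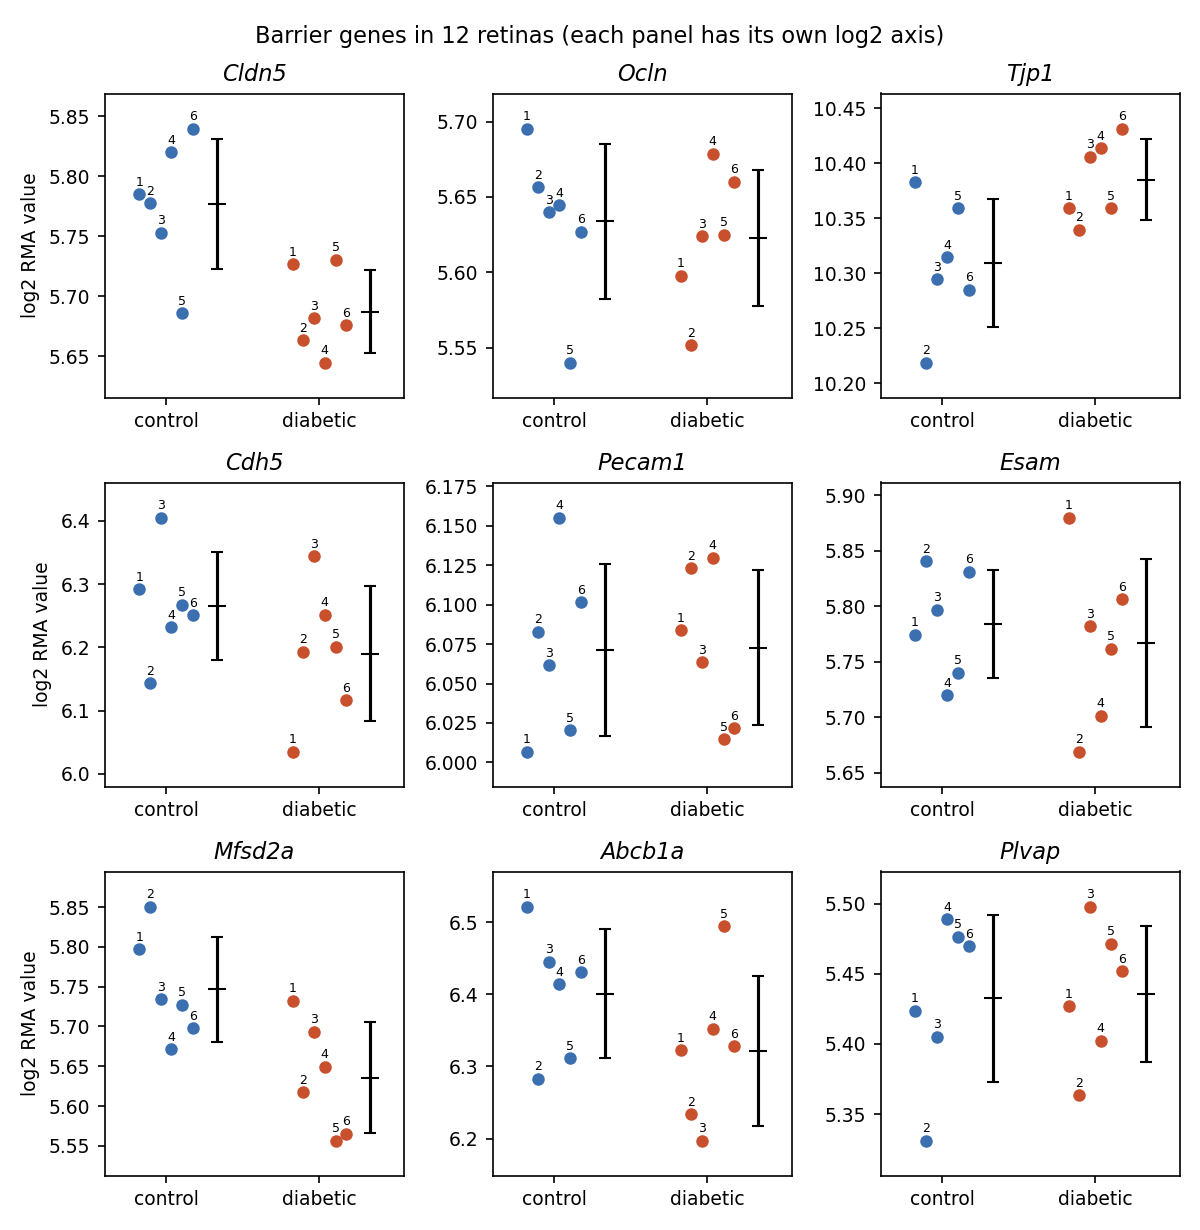
Log2 RMA values of the 9 barrier genes in 6 control and 6 diabetic retinas, 1 point for each animal with its replicate number, and the mean with its SD as a bar; each panel has its own log2 axis. Cldn5 and Mfsd2a lay lower and Tjp1 higher in diabetic retinas with overlapping groups, and the points of Pecam1, Plvap and Ocln were intermixed.

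Claudin-5 closes the space between endothelial cells of the central nervous system. Cldn5 ran from 5.69 through a median of 5.78 to 5.84 in controls and from 5.64 through 5.68 to 5.73 in diabetic retinas. Control 5 was the lowest control and lay among the diabetic retinas, while the other 5 controls lay above every diabetic retina. The means were 5.78 ± 0.05 and 5.69 ± 0.03 (SD, n = 6), a difference of -0.09 ± 0.03 (SE; 95% interval -0.15 to -0.03; limma adjusted p = 0.0803), and all 6 diabetic retinas lay below the control mean. Without control 5 the difference was -0.11 and the limma adjusted p was 0.0292. This was the only call in the 12 runs that left out 1 array, and over all alternatives the adjusted p reached 0.198.

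Occludin spans the membrane at tight junctions of endothelium and of the pigment epithelium. Ocln ran from 5.54 through 5.64 to 5.70 in controls and from 5.55 through 5.62 to 5.68 in diabetic retinas, and the groups overlapped nearly in full. Its difference of -0.01 ± 0.03 had a 95% interval from -0.07 to 0.05 (limma adjusted p = 0.863), which corresponds to 0.952-fold to 1.03-fold.

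ZO-1 ties claudins and occludin to the actin cytoskeleton, and in the retina it is found in the outer limiting membrane and the pigment epithelium as well as in vessels. Tjp1 ran from 10.22 through 10.30 to 10.38 in controls and from 10.34 through 10.38 to 10.43 in diabetic retinas. All 6 diabetic retinas lay above the control mean, but controls 1 and 5 reached into their range. The difference was 0.08 ± 0.03 (1.05-fold; 95% interval 0.02 to 0.14; limma adjusted p = 0.144). Pigment epithelium markers had means of 6.84 to 7.42 in controls and 6.83 to 7.80 in diabetic retinas; with these and the lens markers as covariates the change of Tjp1 was 0.08.

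VE-cadherin, PECAM-1 and ESAM join neighbouring endothelial cells, and PECAM-1 is also carried by platelets and leukocytes. Cdh5 ran from 6.14 through 6.26 to 6.41 in controls and from 6.04 through 6.20 to 6.34 in diabetic retinas, with 5 of 6 diabetic retinas below the control mean and overlapping groups. Its difference of -0.08 ± 0.05 (limma adjusted p = 0.450) had a 95% interval from -0.19 to 0.04, wider than that of the other junction genes. It was -0.04 without diabetic 1 and -0.05 without control 3. Pecam1 ran from 6.01 to 6.16 in controls and from 6.01 to 6.13 in diabetic retinas, a difference of 0.001 ± 0.03 (95% interval 0.958-fold to 1.05-fold; limma adjusted p = 0.987). Esam ran from 5.72 to 5.84 in controls and from 5.67 to 5.88 in diabetic retinas, where diabetic 2 was lowest and diabetic 1 highest. Its difference was -0.02 ± 0.03 (limma adjusted p = 0.825; 95% interval 0.937-fold to 1.04-fold). For all 3 adhesion genes the groups overlapped over most of their range.

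Mfsd2a carries lysophospholipids with omega-3 fatty acids into brain and retina and restrains caveolar vesicles. It ran from 5.67 through 5.73 to 5.85 in controls and from 5.56 through 5.63 to 5.73 in diabetic retinas. All 6 diabetic retinas lay below the control mean of 5.75 ± 0.07 (SD), although diabetic 1 (5.73) and diabetic 3 (5.69) lay within the range of controls. The difference of -0.11 ± 0.04 (95% interval 0.875-fold to 0.980-fold) did not pass (limma adjusted p = 0.120). It kept its sign without any single array, from -0.13 to -0.09, with adjusted p from 0.0742 to 0.294 over all alternatives.

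P-glycoprotein exports drugs at the luminal face of barrier endothelium. Abcb1a ran from 6.28 through 6.42 to 6.52 in controls and from 6.20 through 6.33 to 6.49 in diabetic retinas, where diabetic 5 stood well above the other 5. Its difference of -0.08 ± 0.05 had a limma adjusted p of 0.417 and a 95% interval from -0.19 to 0.03. Its related neighbour Abcb1b, looked at after the values were seen, was dim (5.42 in controls and 5.41 in diabetic retinas, change -0.005 ± 0.02). How far the probes tell these genes apart was not tested.

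Plvap forms the diaphragms of fenestrae and caveolae and is switched off in barrier vessels. It ran from 5.33 through 5.45 to 5.49 in controls and from 5.36 through 5.44 to 5.50 in diabetic retinas. This gene lay below the median of all gene means on every array, and its groups were intermixed. Its difference was 0.003 ± 0.03 (95% interval 0.957-fold to 1.05-fold; limma adjusted p = 0.968).

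**Figure D2:**
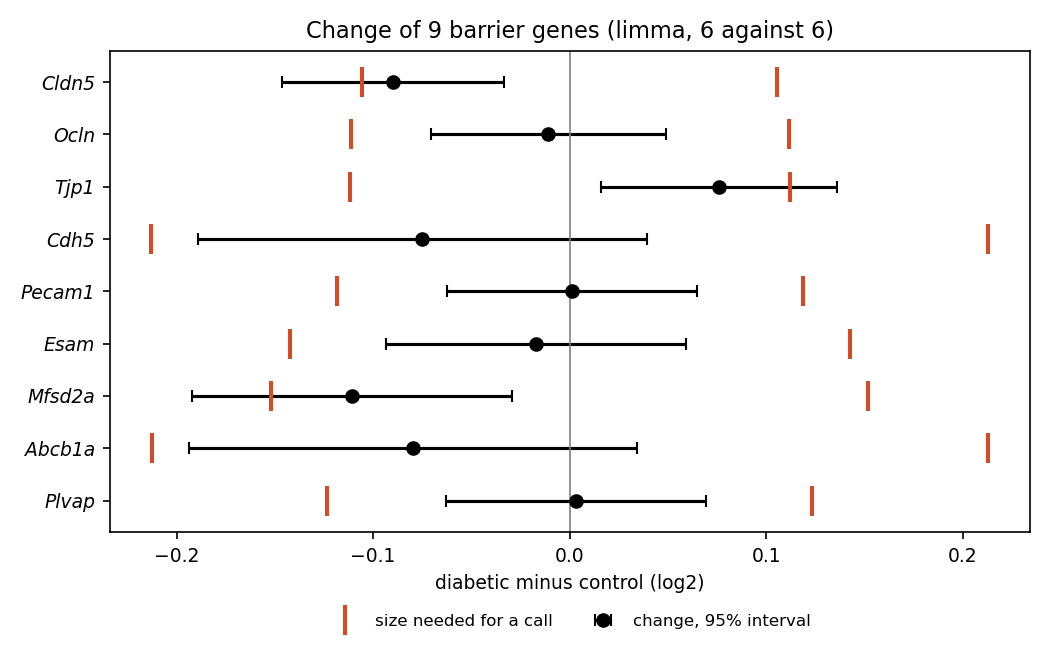
Change of each barrier gene, diabetic minus control, on the log2 scale (points) with its 95% interval from limma (black bars) and the size that would have been called at its standard error (orange marks). No point lies beyond its marks, and the intervals of Cldn5, Mfsd2a and Tjp1 leave out 0 before adjustment over all genes.

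In whole retina fewer endothelial cells and less RNA per cell cannot be told apart. Members were also set against each other on the same array, as a description. Cldn5, Mfsd2a and Plvap were dim, where background signal compresses changes. Such differences therefore cannot tell whether endothelial RNA changed as a whole, and this was not tested. Plvap minus Cldn5, the leaky against the sealing marker, ran from -0.45 to -0.21 in controls and from -0.30 to -0.18 in diabetic retinas. It was above the control mean in 6 of 6 diabetic retinas, by 0.09, with an exact permutation p of 0.0346 (two-sided, over all relabelings) and 0.104 adjusted over 3 comparisons. With all 12 arrays it did not pass. Cldn5 alone differed by -0.09 and Plvap by 0.003, so this difference mostly restated that of Cldn5. Without control 5, which was high here and the lowest control in Cldn5, the difference was 0.12 (adjusted exact permutation p = 0.00649). Control 5 (-0.21) was the only control within the range of diabetic retinas. Leaving it out parts the groups in full, so the p before adjustment is the smallest that this test can give. Mfsd2a set against the mean of Cldn5, Cdh5, Pecam1 and Esam differed by -0.07 (adjusted exact permutation p = 0.224). Abcb1a set against the same mean differed by -0.03 (adjusted exact permutation p = 0.532). Neither passed, which does not show that the transporters changed equally with the junction genes. The reference itself holds Cldn5 (-0.09) and Cdh5 (-0.08), which were lower, and Pecam1 (0.001) and Esam (-0.02), which differed little. Against the mean of the 20 general endothelial genes, Mfsd2a differed by -0.11 (adjusted exact permutation p = 0.0519). That mean was 5.982 in controls and 5.985 in diabetic retinas. The difference thus mostly restated that of Mfsd2a alone (-0.11), which did not pass limma (adjusted p = 0.120). The same mean holds Kdr (0.26) and Flt1 (0.12), which were higher in diabetic retinas, and Nos3 (-0.12) and Eng (-0.10), which were lower.

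Of the 6 related lists, that of the Norrin and Wnt pathway held the only genes that rose. Of its 20 genes, 2 passed upward (1.47% of all genes did) and 0 downward (1.77%), with a median change of -0.02. At an unadjusted p under 0.05 there were 5 of 20, against 21.0% of all genes. Frizzled-4, the receptor of Norrin, ran from 6.73 through 6.79 to 6.82 in controls and from 6.85 through 6.99 to 7.07 in diabetic retinas. The groups did not overlap, which held for 2.84% of all genes. Fzd4 rose 1.14-fold (log2 change 0.19 ± 0.04; limma adjusted p = 0.0191), and the call held without any single array, but not without diabetic 2 and diabetic 6 together, the arrays with the most lens signal (0.18; adjusted p = 0.0533).

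Adgra2 (GPR124) is the adhesion receptor that, with Reck, passes Wnt7 signals to vessels of the brain. It ran from 6.50 through 6.56 to 6.66 in controls and from 6.65 through 6.73 to 6.87 in diabetic retinas, and only control 5 and diabetic 5 met. Adgra2 rose 1.12-fold (0.16 ± 0.04; limma adjusted p = 0.0410), but the call held only without control 5, diabetic 2 or diabetic 5 and was lost in the other 9 runs that left out 1 array, with limma-trend (adjusted p = 0.0712), with the lens and pigment epithelium means as covariates (0.0601), without diabetic 2 and diabetic 6 together (0.0885) and with the replicate number as a block (0.111). The ligand gene Ndp differed by 0.09 ± 0.05 (adjusted p = 0.282) and the endothelial transcription factor Foxq1, both named after their values were seen, by -0.06 ± 0.02 (adjusted p = 0.0557). Of known targets and partners of beta-catenin in the list, also singled out after their values were seen, Axin2 (-0.08 ± 0.05), Apcdd1 (-0.08 ± 0.04), Lef1 (0.02 ± 0.03), Tcf7 (0.04 ± 0.02) and Nkd1 (0.06 ± 0.04) lay on both sides of 0, and none of them passed.

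Of 17 other tight junction genes, 0 rose (1.47% of all genes did) and 1 fell (1.77%). At an unadjusted p under 0.05 there were 5 of 17 (29.4%, against 21.0% of all genes), 3 higher and 2 lower. Cldn11, the claudin best known from myelin, ran from 5.86 to 5.91 in controls and from 5.71 to 5.83 in diabetic retinas, so that the groups did not overlap, as for 2.84% of all genes. It fell by 0.11 ± 0.02 on the log2 scale (limma adjusted p = 0.0222), at a level of 5.89 in controls, close to the median of all gene means, and the call was lost without diabetic 4 (adjusted p = 0.0522), with limma-trend (0.0609), with only genes above the median level tested (0.0799), without diabetic 2 and diabetic 6 together (0.0603) and with the replicate number as a block (0.0508). F11r, the junctional adhesion molecule JAM-A, named after its values were seen, differed by 0.09 ± 0.02 with a limma adjusted p of 0.0518. It was 0.0232 without diabetic 5, the only 1 of 12 runs leaving out 1 array with a call, and up to 0.109 over all alternatives.

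In the lists of 17 adherens junction genes, 20 transporters and receptors, 10 caveolar and transcytosis genes and 20 general endothelial genes, 0 genes passed limma. Over all genes 3.24% passed. At an unadjusted p under 0.05 these lists held 0, 6, 1 and 3 genes, and 21.0% of all genes reached it. Of the adherens junction genes, 13 of 17 had values above 0 (median 0.05), against 11830 of all 24570 genes. The smallest p were those of Rap1b, a GTPase of junction assembly, and of beta-catenin itself (Ctnnb1). Rap1b differed by 0.18 ± 0.09 (limma adjusted p = 0.293), and by 0.09 without control 2, the lowest control. Ctnnb1 differed by 0.08 ± 0.04 (limma adjusted p = 0.304). Among transporters and receptors, the insulin receptor gene Insr differed by 0.15 ± 0.04 (limma adjusted p = 0.0608). It was called in 2 of 12 runs that left out 1 array (0.0288 without control 4 and 0.0400 without control 5). Over all alternatives its adjusted p reached 0.135. Ager, the receptor of advanced glycation end products, differed by -0.17 ± 0.06 (limma adjusted p = 0.123). Slc2a1, the glucose transporter of barrier endothelium and of photoreceptors, ran from 11.29 to 11.43 in controls and from 11.24 to 11.58 in diabetic retinas (0.09 ± 0.05; adjusted p = 0.356). Caveolin-1 (Cav1), which Mueller glia also make, differed by -0.13 ± 0.05 (adjusted p = 0.190) and the reelin receptor gene Lrp8 by 0.09 ± 0.05 (adjusted p = 0.266). Of the general endothelial genes, the VEGF receptor gene Kdr, which retinal neurons also express, differed by 0.26 ± 0.08 (limma adjusted p = 0.0944). It was called in 1 of 12 runs that left out 1 array (0.0442 without diabetic 2), and its adjusted p reached 0.172 over all alternatives. The nitric oxide synthase gene Nos3 differed by -0.12 ± 0.04 (limma adjusted p = 0.107).

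**Figure D3:**
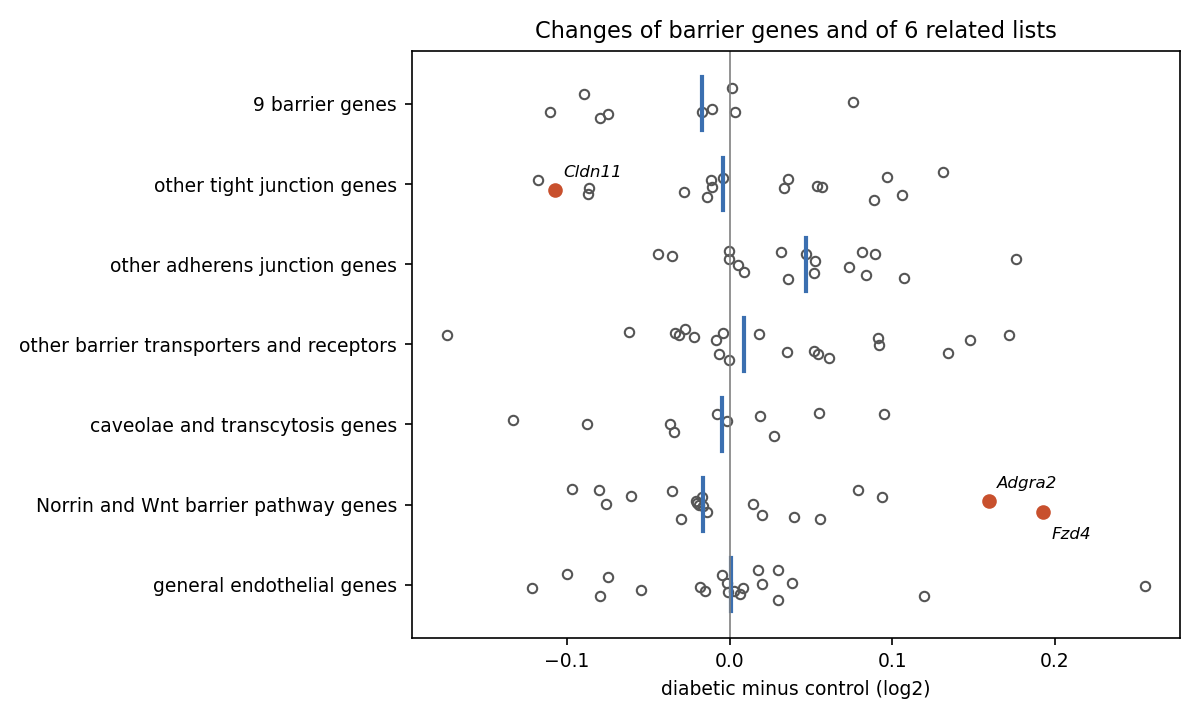
Changes of the 9 barrier genes and of 6 related gene lists, diabetic minus control, on the log2 scale; each circle is a gene, filled where its adjusted p is under 0.05, and the blue line is the median of the list. Fzd4 (0.19) and Adgra2 (0.16) lie to the right and Cldn11 (-0.11) to the left, while no barrier gene is filled.

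Pericytes, which wrap the capillaries and support the barrier, were followed by 14 markers of pericytes and smooth muscle, of which 10 had values below 0 (median -0.03; 51.9% of all genes lay below 0) and 1 passed, downward (1.77% of all genes did). At an unadjusted p under 0.05 there were 4 of 14, all lower (28.6%, against 21.0% of all genes in either direction and 11.3% lower). They were Acta2, Notch3, Vtn and the dim Higd1b (5.35 in controls). Vtn was by far the brightest of the 14 (12.26 in controls, next Rgs5 at 9.60). Which cells gave its signal was not tested, so it may not report on pericytes. The 4 markers above 0 were Pdgfrb (0.08), Abcc9 (0.03), Tagln (0.007) and Cnn1 (0.006), while Myh11 (-0.03) and Des (-0.003) lay near 0. Acta2, the actin of smooth muscle, ran from 6.65 through 6.76 to 6.88 in controls and from 6.48 through 6.55 to 6.69 in diabetic retinas. It fell by 0.21 ± 0.05 (limma adjusted p = 0.0367), but the call held only without control 1, control 4 or diabetic 2 and was lost in the other 9 runs that left out 1 array, and without diabetic 2 and diabetic 6 together (adjusted p = 0.0528). The mean of the 14 markers ran from 6.48 to 6.53 in controls and from 6.45 to 6.49 in diabetic retinas.

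The other tissues that a dissected retina can carry held 0 called genes: pigment epithelium (12 markers), lens (10), leukocytes and platelets (12), red blood cells (6 of 8 measured) and cornea and conjunctiva (8). At an unadjusted p under 0.05 these 5 lists held, in this order, 1, 1, 3, 0 and 1 genes, and 21.0% of all genes reached it. The 3 of leukocytes and platelets were lower and the others higher. Variable markers needed large changes for a call, 3.76 for Cryaa and 2.14 for Rpe65. Of lens markers 9 of 10 lay above 0 (median 0.14), and of leukocyte and platelet markers 9 of 12 lay below 0 (51.9% of all genes did). The lack of calls therefore does not show equal carry-over. Leukocyte and platelet markers, which share Pecam1, had means of 5.41 to 5.46 in controls and 5.37 to 5.40 in diabetic retinas, with 11 of 12 below the median of all gene means; their part in the values of Pecam1 was not tested.

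**Figure D4:**
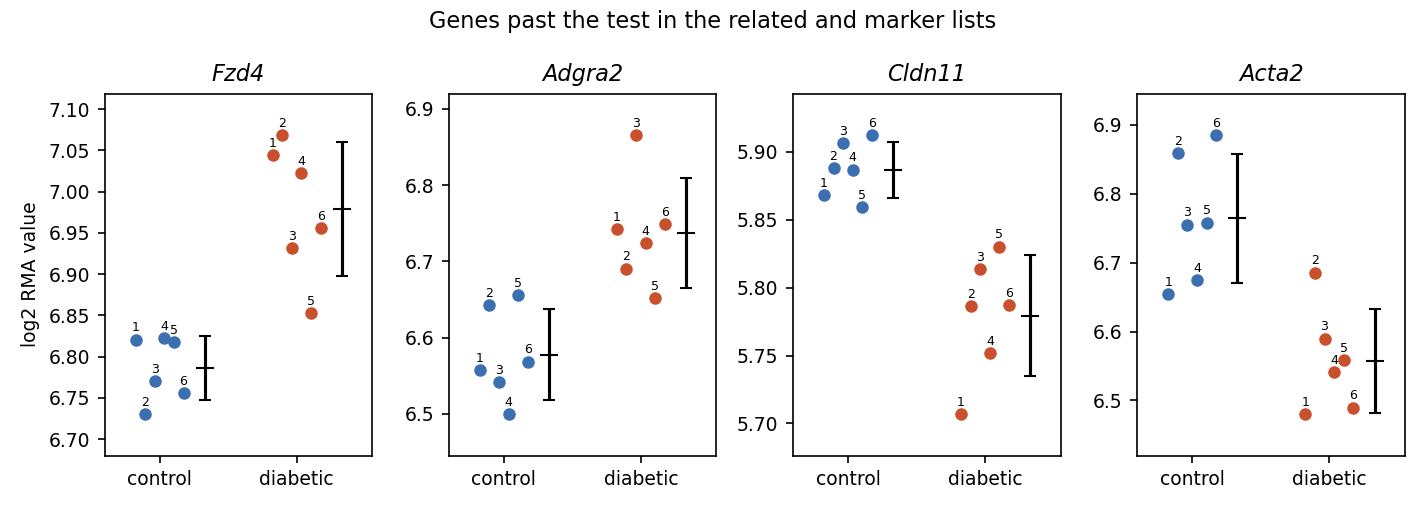
Log2 RMA values of Fzd4, Adgra2, Cldn11 and Acta2 in 6 control and 6 diabetic retinas, 1 point for each animal with its replicate number, and the mean with its SD as a bar; each panel has its own log2 axis. The groups do not overlap for Fzd4 and Cldn11, whereas they meet at the edges for Adgra2 and Acta2.

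The barrier genes were also compared with each other within the groups. Over the 36 pairs of members, with the group means removed, Pearson's r across the 12 arrays ran from -0.49 to 0.54, with 18 pairs above and 18 below 0. None passed (0 of 36; 0 also at an unadjusted permutation p under 0.05, by Pearson's r and by Spearman's rho; smallest adjusted permutation p 0.810 and 0.843). The highest was Tjp1 with Plvap (r = 0.54, permutation p = 0.103; rho = 0.45, permutation p = 0.160), which was 0.61 within controls and 0.41 within diabetic retinas and fell to 0.34 without control 2 and control 6. Cldn5 with Esam, both endothelial junction genes, had r = 0.44 (permutation p = 0.134; rho = 0.43, permutation p = 0.163), 0.29 within controls and 0.68 within diabetic retinas, and 0.58 without control 6 and control 4. Cdh5 with Pecam1, each found throughout the endothelium, had r = -0.08 (permutation p = 0.805; rho = -0.18, permutation p = 0.588; -0.34 within controls, 0.14 within diabetic retinas; -0.03 without the 2 arrays farthest from the median).

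**Figure D5:**
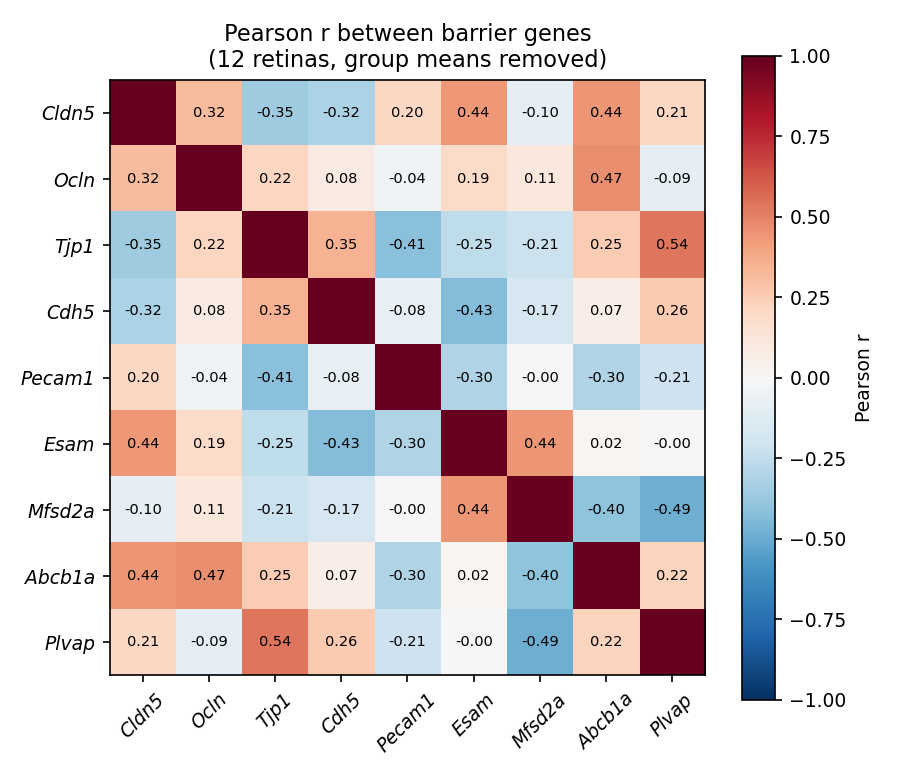
Pearson's r between the 9 barrier genes across 12 retinas after removal of the group means, from blue (-1) to red (1). The values off the diagonal run from -0.49 (Mfsd2a with Plvap) to 0.54 (Tjp1 with Plvap).

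The genes whose pattern over the 12 arrays was most like the mean of Cldn5, Cdh5, Pecam1 and Esam (standardized, group means removed), in a ranking of the 12280 brighter genes (mean no lower than the median gene), were Sem1 (r = 0.93), Ndfip1 (0.89), Imp3 (0.88), Jun (0.88), Rhoa (0.87) and Ctsz (0.87). These genes are broadly expressed in many cell types. They are the highest of many correlations over the same arrays and are given as a description.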

How the data were processed

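Retinal RNA of 12 mice (6 control, 6 diabetic) was measured on arrays after Trizol extraction and biotin labelling by the Affymetrix procedure, per the labels' protocols. The deposited table holds log2 values that the authors made with RMA, per the submitters' processing notes; its version, the array, the probe set definition and the genome build are not given in the sources used here. Of 24973 lines, 1 per Entrez gene number, 24015 were named by the platform annotation and 559 by RefSeq (GRCm38.p6), and 399 were left out; of 4 symbols on several lines the brightest line was kept. Diabetic and control arrays were compared with limma 3.58.1 (R 4.3.3; lmFit and eBayes, Benjamini-Hochberg over 24570 genes, threshold 0.05, no filter), tested on simulated data. Differences within arrays used two-sided exact permutation tests, and pairs of members 100000 permutations within groups. Each replicate is 1 animal, and their number limits the precision. Members and lists were chosen with earlier results of these data known. Named genes were the members, Slc2a1, genes of a list past the test or else the 2 of smallest p, the called marker genes and the 6 most similar genes; others are said to be named after their values were seen. Alternatives covered lines per gene, filters, variance models, weights, centring, threshold, covariates, replicate block and arrays left out.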

Additional observations from a re-analysis of the deposited data

Results flagged for a closer look

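Among 84 groups of 6 arrays (members, named genes, differences within arrays and list means), 2 held an array whose gap to its neighbour, divided by the range of the group, exceeded Dixon's 95% critical value of 0.625. This is 2.38%, where chance flags about 1 in 20. In controls, Nos3 was high on control 2 (6.16, next 5.95; ratio 0.817). The mean of the 17 other adherens junction genes was low on the same array (7.87, next 7.95; ratio 0.718). No barrier gene had such an array in either group.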

How the results depend on the processing

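Of 221 refits of single barrier genes over 25 alternative settings, 203 kept direction and call. The number of barrier genes called was 0 in 23 settings and 1 (Cldn5) at a threshold of 0.10 or without control 5, so leaving out single arrays gave 0 to 1. The signs of the smallest changes turned: Pecam1 to -0.0063 with pigment epithelium and lens covariates and between -0.012 and 0.018 without single arrays, Plvap to -0.0049 with array weights and between -0.017 and 0.018, Ocln between -0.030 and 0.0033, Esam between -0.040 and 0.0025, and Abcb1b between -0.019 and 0.0024. The 3 called genes of the 6 related lists became 7 at a threshold of 0.10, 1 with limma-trend, 0 with the replicate block, 0 without diabetic 2 and diabetic 6 (a choice made after seeing the data) and 1 to 4 without single arrays, 1 of them without diabetic 4. The count over all genes was 797, against 1967 at a threshold of 0.10, 506 with the replicate block, 379 without diabetic 2 and 6, and 325 to 835 without single arrays; it fell by over 1.5 times without control 1, 2, 3 or 6 or diabetic 1, 3, 4 or 6. Plvap minus Cldn5 ran from 0.073 to 0.12 without single arrays. The 0.12 without control 5 passed, but control 5 was the only control that overlapped the diabetic retinas. The replicate block left the difference at 0.09 (adjusted exact p = 0.141). Pairing of arrays by replicate number was not seen: deviations of same-numbered arrays correlated from -0.16 to 0.17, and 1 of 6 controls correlated best with its own number. Such correlations over all genes cannot exclude a pairing. With the block, Fzd4 (adjusted p = 0.0521), Cldn11 (0.0508) and Adgra2 (0.111) missed the threshold. The cause of these shifts was not tested. The table holds no signal over background, which limits the dim genes.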
